A study of Mus musculus with 6 samples.

Results

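Antigen presentation by MHC class I molecules was followed through 10 genes in cultured dermal fibroblasts with and without stabilized β-catenin. The genes were chosen for their roles in the pathway and by no rule on their values, though earlier results of these data were known. They were the heavy chains H2-K1 and H2-D1, the light chain B2m, the peptide transporter subunits Tap1 and Tap2, the loading factor Tapbp, the immunoproteasome subunits Psmb8, Psmb9 and Psmb10, and the transactivator Nlrc5. All 10 were found by symbol among the 41126 genes of the all-gene RNA table, and all 10 were among the 15462 genes that passed the filter on low counts in the test across genes.

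RNA was sequenced from ventral dermal fibroblasts of mouse pups at postnatal day 4, with 3 Control and 3 gain-of-function (GOF) cultures. GOF cells were infected with an adenovirus carrying Cre recombinase (AdCre) and are labelled Ctnnb1Δex3/+, an allele that lacks exon 3 of 1 copy of the β-catenin gene and yields a protein that escapes degradation. Control cells are labelled +/+ and received an adenovirus carrying green fluorescent protein (AdGFP), while the study describes them as cells with the same unrecombined transgene. The pups were of a mixed CD1 and C57Bl6 background. The treatment label gives a multiplicity of 366 to 500 infectious virus particles per cell for 6 h without serum and names AdCre for every culture, so for the Control cultures it goes against their own genotype label. The study's methods instead give 366 to 500 for AdCre and 366 for AdGFP, so the dose may also have differed. Virus, allele and perhaps dose therefore differed together between the groups, and their effects cannot be told apart. The 6 cultures came from 4 animals: animal 9852 gave Control replicate 0 and GOF replicate 2, and animal 9845 gave Control replicate 2 and GOF replicate 0. Cre acted in whichever cells took up the virus, and the share of recombined cells per culture was not measured in the table.

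MHC class I molecules carry peptides from proteins made inside a cell to its surface, where CD8+ T cells read them. Proteasomes cut proteins into peptides, the TAP transporter moves the peptides into the endoplasmic reticulum, tapasin and other chaperones load them onto a heavy chain paired with β2-microglobulin, and the complex travels to the surface. Interferons exchange the catalytic proteasome subunits for inducible ones and raise most genes of the pathway, and NLRC5 drives class I promoters from a compact module of DNA boxes. Fibroblasts, like nearly all nucleated cells, carry class I molecules at a low resting level.

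The genes that encode the surface complex lie on different chromosomes, and their promoters are shown first because they hold the same module. In the mm10 build with GENCODE M21 annotation, H2-K1 (chr17:33996017-34000347, minus strand), H2-D1 (chr17:35262730-35267499, plus strand) and B2m (chr2:122147686-122153083, plus strand) are protein-coding genes. In the RefSeq promoter windows of GRCm38.p6, 250 bases before to 50 bases after each start, all 3 carried a cyclic AMP response element (CRE) core, TGACG, then 20 bases, then the Y box ATTGG, a reversed CCAAT box. The 70-base stretches below run 5′ to 3′ on the gene's own strand and have both boxes in capitals.
H2-K1, chr17:34000339-34000408, minus strand: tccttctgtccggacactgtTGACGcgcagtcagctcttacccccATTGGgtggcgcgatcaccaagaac
H2-D1, chr17:35262973-35263042, plus strand: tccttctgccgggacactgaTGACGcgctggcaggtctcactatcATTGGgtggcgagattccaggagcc
B2m, chr2:122147589-122147658, plus strand: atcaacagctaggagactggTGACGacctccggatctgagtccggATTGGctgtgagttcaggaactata
The Y box began 16 bases upstream of the start in H2-K1, 76 in H2-D1 and 53 in B2m. H2-K1 had another RefSeq start, from which the same box lay 30 bases upstream. A window existed for 8 of the 10 genes, and 3 of these 8 held the spaced pair. Among all 32851 windows 31 held it on either strand, 0.0944%, and the class I-like gene H2-M3 was among them. The spacing was noticed after the sequences had been seen, so these counts are a description.

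B2m carried further boxes upstream of the module. The stretch below has an interferon response core (GAAA, any 2 bases, GAAA, beginning 139 bases upstream) and an NF-κB site (GGGA, any 2 bases, TTCC, matched on the opposite strand 126 bases upstream) in capitals.
B2m, chr2:122147538-122147580, plus strand: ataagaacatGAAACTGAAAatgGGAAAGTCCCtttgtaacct
B2m was the only member of the 8 with either box, which occurred in 3.44% and 1.47% of all windows on either strand. Tap1 and Psmb9 lie head to head on chromosome 17 with RefSeq starts 226 bases apart and share the DNA between them. It is shown 5′ to 3′ on the strand of Tap1, and its capitals mark, in order, the reversed Y box, a reversed GC box (GGGCGG on the other strand) and a CRE core.
Tap1 and Psmb9, chr17:34187306-34187580, plus strand: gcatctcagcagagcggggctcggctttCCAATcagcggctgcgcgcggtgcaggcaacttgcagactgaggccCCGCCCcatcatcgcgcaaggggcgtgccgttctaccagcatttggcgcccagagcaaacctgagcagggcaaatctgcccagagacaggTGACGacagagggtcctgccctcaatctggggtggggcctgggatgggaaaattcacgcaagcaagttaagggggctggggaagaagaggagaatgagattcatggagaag
The gamma-activated site TTCNNNGAA was found in the Psmb8 window alone of the 8, 97 bases upstream, and in 8.3% of all windows. The TCF/LEF core CTTTGAT, the word bound by the DNA partners of β-catenin, was in none of the 8 windows and in 3.73% of all. No letters of the 7 motifs searched on both strands were found in the Psmb10 window. A match is not a bound site, and a missing match says nothing of a factor.

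The libraries held 35980818 to 42834460 estimated fragments on genes. Axin2, a direct β-catenin target, lay between 0.136 and 0.177 FPKM (fragments per kilobase of transcript, scaled to library depth) in Control and between 14.4 and 19.2 in GOF, whereas Ctnnb1 as a whole had an edgeR log2 fold change of -0.05 (adjusted p = 0.844). Fibroblast markers summed to 4387 to 5086 FPKM in Control and 5245 to 5374 in GOF, and Krt5 and Krt14, which define basal keratinocytes, stayed at or below 0.07. The keratinocyte list summed to 2.24 to 3.57 in Control and 12.4 to 39.7 in GOF, of which Dsp and Perp, genes that epithelial cells use for junctions, were called higher, and the endothelial list to 10.4 to 12.2 and 12.3 to 13.7. Of 12 endothelial markers tested 3 were called higher and 1 lower in GOF, and of 13 fibroblast markers 2 were called lower, Dcn and Col1a2. The part of these markers in the results was not tested. Leukocyte markers, whose cells are rich in class I molecules, summed to 16.2 to 27.1 in Control and 12.3 to 33.6 in GOF over 22 genes, with Cd3e at 0 in every library and Ptprc at most 0.0862. Of the 14 leukocyte markers tested, 1 was called, Csf1r, higher in GOF. Control replicate 0 stood apart from the other Control libraries in interferon-induced genes. The summed level of 28 type I interferon-induced genes was 519 FPKM there against 160 and 261 in the other Controls and 126 to 144 in GOF. Because class I genes respond to interferons, results that rest on this library are given with and without it. In a bulk culture, fewer cells of a type and less RNA per cell cannot be told apart.

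Few class I presentation genes differed between the cultures. A gene was called when its Benjamini-Hochberg adjusted p from edgeR's quasi-likelihood test was below 0.05 and its change exceeded 2-fold. By that rule 1 of the 10 members was lower in GOF (Psmb10) and 0 were higher, with 1 of 10 at an unadjusted p under 0.05. Across all genes tested 12.3% were called, 6.69% higher and 5.64% lower, so the members' 10.0% was near the background. With the edgeR adjusted p alone the count of members was still 1, against 21.2% of all genes. Their fitted log2 fold changes ran from -1.08 (Psmb10) to 0.69 (Nlrc5), 4 positive and 6 negative, with a median of -0.28 against -0.02 over all genes. Control and GOF values were fully separated for 2 of the 10, Tapbp and Psmb10, and for 39.5% of all genes. Of the 10, 8 had their highest Control value in replicate 0. So did 18 of 19 constitutive proteasome and activator genes, 9 of 15 peptide loading and trimming genes and 2 of 13 fibroblast markers. The share of all genes with their highest Control value in Control replicate 0 was not taken. Without that library 0 members were called lower, Nlrc5 was called higher, and the median became 0.11, with 12.3% of 15952 genes called.

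**Figure D1:**
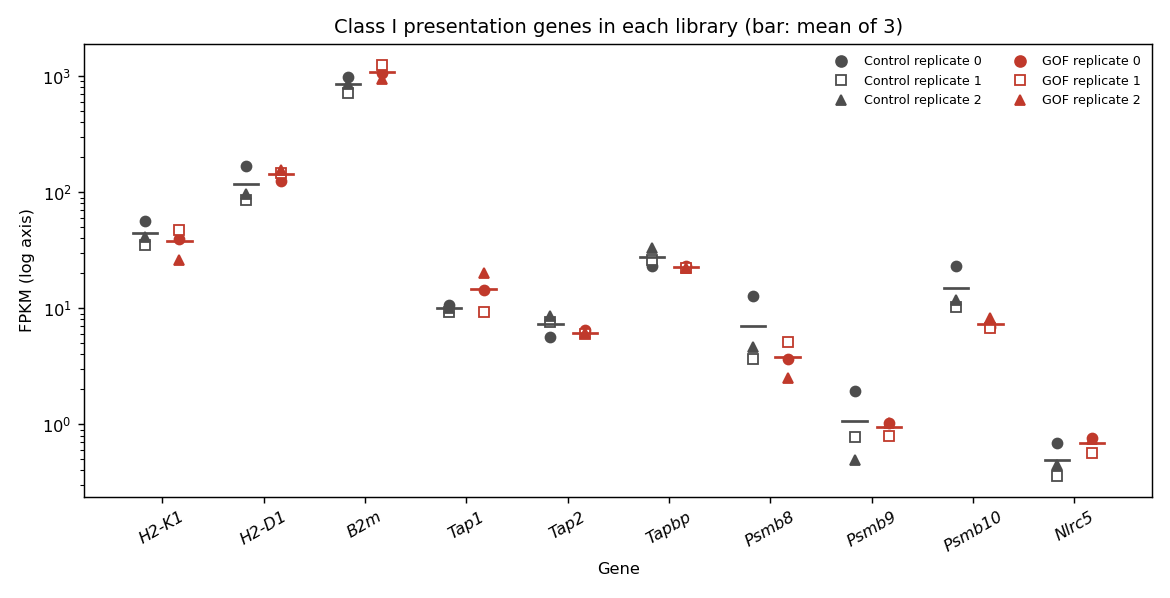
FPKM of the 10 class I presentation genes in each library on a log axis, with Control and GOF libraries side by side, bars at the group means and marker shapes for the replicate number. B2m was the highest and Nlrc5 the lowest of the 10 in every library, and the Psmb10 values of GOF, 6.70 to 8.22, sat below all Control values.

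Mean levels of the members spanned 3 orders of magnitude. By Control means B2m was highest, followed by H2-D1, H2-K1, Tapbp, Psmb10, Tap1, Tap2, Psmb8, Psmb9 and Nlrc5. The Control ranges of Psmb10 and Tap1, of Tap2 and Psmb8 and of Psmb9 and Nlrc5 overlapped, and those of the other neighbours did not. Within libraries Psmb8 stood above Tap1 and Tap2 in Control replicate 0. In GOF the order of means was the same except that Tap1 stood above Psmb10, and no neighbouring ranges overlapped. These levels are per length, and those of the heavy chains carry the uncertainty of near-identical paralogs.

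B2m encodes the light chain with which most class I heavy chains pair before they leave the endoplasmic reticulum. It measured 984, 723 and 850 FPKM in Control replicates 0, 1 and 2 and 1069, 1260 and 942 in GOF replicates 0, 1 and 2. The highest Control value lay above the lowest GOF value, so the groups overlapped. The means were 852 ± 131 and 1090 ± 160 (SD, n = 3 per group), with a log2 fold change of 0.35 (SE 0.21, edgeR adjusted p = 0.277). B2m lies inside the annotated span of Patl2 on the opposite strand, whose own level was at most 0.028 FPKM.

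H2-D1, a classical heavy chain that displays peptides to CD8+ T cells, measured 167, 86.4 and 96.6 FPKM in Control and 125, 145 and 157 in GOF. Control replicate 0 was the highest of the 6 libraries, and the other Control values lay below all 3 of GOF. The means were 117 ± 43.9 and 142 ± 15.9 (SD, n = 3 per group), with a log2 fold change of 0.23 (SE 0.26, edgeR adjusted p = 0.568). Without Control replicate 0 the log2 fold change was 0.58 with an edgeR adjusted p of 0.0280, under the fold threshold of 2.

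H2-K1, the other classical heavy chain, measured 57.0, 35.2 and 41.4 FPKM in Control and 39.5, 47.7 and 25.9 in GOF. Control replicate 0 was again the highest and the lowest value was GOF replicate 2, the culture from the same animal. The means of 44.5 ± 11.2 and 37.7 ± 10.99 (SD, n = 3 per group) differed by a log2 fold change of -0.29 (SE 0.24, edgeR adjusted p = 0.425). Within animal 9852 the log2 difference of FPKM, GOF minus Control, was -1.14 and within animal 9845 -0.07. H2-K1, H2-D1 and the H2-Q genes are near-identical in parts, and the pups' mixed background can carry alleles that differ from the C57BL/6 reference, so fragments may have been split between them.

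Tap1 and Tap2 form the transporter that feeds peptides into the endoplasmic reticulum, and their fitted changes had opposite signs. Tap1 (chr17:34187553-34197225, plus strand) measured 10.7, 9.29 and 10.0 FPKM in Control and 14.3, 9.34 and 20.3 in GOF. GOF replicates 0 and 2 lay above every Control and GOF replicate 1 lay among them. The means were 10.0 ± 0.713 and 14.6 ± 5.498 (SD, n = 3 per group), with a log2 fold change of 0.50 (SE 0.28, edgeR adjusted p = 0.253). Blocking by animal, which rests on the animals shared by both groups, gave 0.70 with an edgeR adjusted p of 0.0282. Leaving out GOF replicate 1 gave an edgeR adjusted p of 0.0490, and both were short of the fold threshold. Tap1 was higher in GOF within both animals that gave a culture to each group, by 0.51 on the log2 scale in 9845 and 0.92 in 9852.

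Tap2 (chr17:34203527-34216321, plus strand) measured 5.66, 7.56 and 8.53 FPKM in Control and 6.46, 5.97 and 6.10 in GOF. Its GOF values lay inside the Control range, with a log2 fold change of -0.27 (SE 0.18, edgeR adjusted p = 0.322). The span overlaps Gm20496 and Gm15821 on the opposite strand, both at or below 0.363 FPKM, and whether counting used strand is not given in the sources used here. Tap1 and Psmb9 overlap by their 5′ ends as well.

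Tapbp encodes tapasin, which bridges the transporter and the empty heavy chain. It lies on chr17:33915899-33929292, plus strand, and overlaps Zbtb22 on the same strand, whose fragments cannot be fully separated from its own. Zbtb22 averaged 13.3 ± 2.80 FPKM in Control and 9.38 ± 0.806 in GOF (log2 fold change -0.43, edgeR adjusted p = 0.160). All GOF values of Zbtb22 lay below its Control values. The antisense gene Gm19412 overlaps Tapbp as well, at 2.91 to 5.21 FPKM. Tapbp measured 23.06, 26.3 and 33.0 FPKM in Control and 23.02, 22.4 and 22.1 in GOF. All GOF values lay below all Control values, though Control replicate 0 and GOF replicate 0 differed by little. The means were 27.4 ± 5.05 and 22.5 ± 0.459 (SD, n = 3 per group), with a log2 fold change of -0.31 (SE 0.14, edgeR adjusted p = 0.155). The exact two-sided permutation test gave p = 0.1, the smallest that 3 against 3 libraries allow.

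Of the 3 inducible proteasome subunits, 1 was lower in GOF. Each takes the place of 1 constitutive catalytic subunit: Psmb8 (LMP7) that of Psmb5, Psmb9 (LMP2) that of Psmb6, and Psmb10 (MECL-1) that of Psmb7. Psmb10, on chr8:105935735-105938444, minus strand, was the only member called in the fit of all 6 libraries. It measured 22.99, 10.2 and 11.7 FPKM in Control and 6.85, 6.70 and 8.22 in GOF. Every GOF value lay below every Control value, and Control replicate 0 stood well above the other Controls. The means were 14.98 ± 6.98 and 7.26 ± 0.836 (SD, n = 3 per group), with a log2 fold change of -1.08 (SE 0.32), or 2.12-fold lower in GOF, with an edgeR adjusted p of 0.0488 (unadjusted p = 0.0103). The exact permutation test gave p = 0.1, its smallest. Without Control replicate 0 the log2 fold change was -0.63 (edgeR adjusted p = 0.0444), which no longer reached 2-fold. Over the 15 alternatives the log2 fold change stayed negative, from -1.28 to -0.63, with adjusted p from 0.00726 to 0.155, and the call was lost in 8. Blocking by animal, which rests on the animals that gave a culture to each group, kept the call at -1.11 (edgeR adjusted p = 0.0156). The antisense gene Gm16156 overlaps Psmb10 and was at most 0.136 FPKM.

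Psmb8 (chr17:34197721-34201454, plus strand) measured 12.7, 3.67 and 4.67 FPKM in Control and 3.65, 5.12 and 2.53 in GOF. Control replicate 0 was far above the other 5 libraries, which overlapped. The log2 fold change was -0.96 (SE 0.50, edgeR adjusted p = 0.216), and -0.18 without Control replicate 0. Within animal 9852, which gave that library, the log2 difference was -2.33, and within animal 9845 it was -0.36.

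Psmb9 (chr17:34181987-34187764, minus strand) was close to the limit of these libraries, with 25 to 86 fragments. It measured 1.92, 0.774 and 0.488 FPKM in Control and 1.02, 0.795 and 1.02 in GOF. Control replicate 0 was the highest and the remaining Controls lay at or below the lowest GOF value. The log2 fold change was -0.42 (SE 0.52, edgeR adjusted p = 0.608), and 0.30 without Control replicate 0, so its sign rested on that library. Its within-animal differences had opposite signs, 1.06 in 9845 and -0.91 in 9852.

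**Figure D2:**
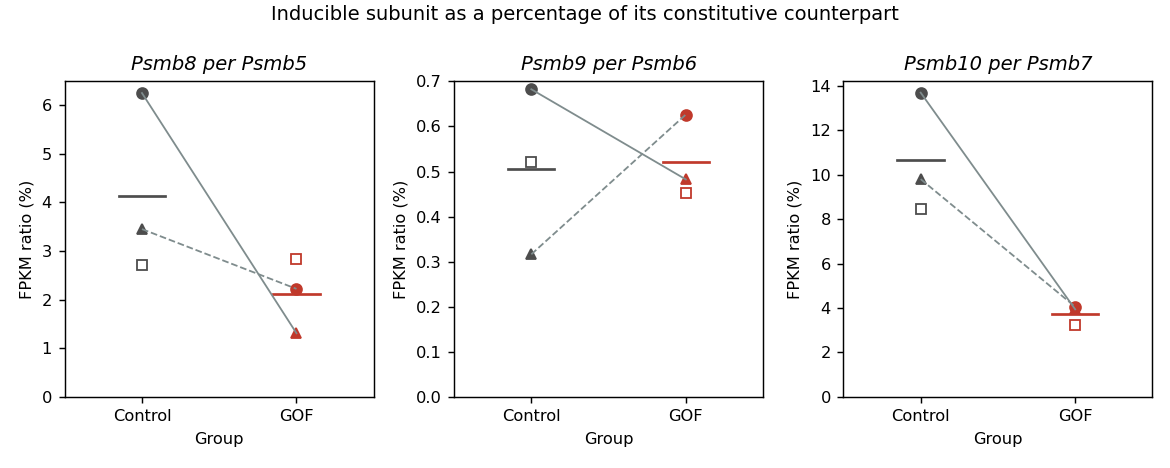
FPKM of each inducible proteasome subunit as a percent of its constitutive counterpart in every library, with bars at the group means. The Psmb10 to Psmb7 values of GOF, 3.23 to 4.06%, lay below those of Control, 8.45 to 13.7%, and the groups overlapped for the other pairs.

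The ratio of inducible to constitutive subunit was then taken within each library, which removes differences that both subunits share. Psmb10 reached 13.7%, 8.45% and 9.80% of Psmb7 in Control and 4.06%, 3.23% and 3.94% in GOF. The groups did not overlap, and the Control values were spread more widely than those of GOF. The means were 10.7% ± 2.72 and 3.74% ± 0.444 (SD, n = 3 per group), a mean log2 difference of -1.49 with p = 0.1 in the exact two-sided permutation test, the smallest possible. Both components went into this difference, since Psmb7 averaged 136 ± 27.5 FPKM in Control and 195 ± 22.5 in GOF (log2 fold change 0.49, edgeR adjusted p = 0.0877). Within animals the log2 difference was -1.27 (9845) and -1.80 (9852), and leaving out each library in turn kept it between -1.64 and -1.29.

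Psmb8 reached 6.25%, 2.71% and 3.45% of Psmb5 in Control and 2.22%, 2.83% and 1.31% in GOF. GOF replicate 1 lay above Control replicate 1, and the log2 difference of -0.94 had an exact permutation p of 0.2. Psmb9 reached 0.683%, 0.521% and 0.316% of Psmb6 in Control and 0.627%, 0.453% and 0.482% in GOF. The GOF values lay within the Control range (log2 difference 0.09, exact permutation p = 0.9). The counterparts themselves were not called, with log2 fold changes of 0.13 for Psmb5 (edgeR adjusted p = 0.673) and -0.12 for Psmb6 (edgeR adjusted p = 0.777). At these levels each inducible subunit was a minor species beside its counterpart in every library.

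Nlrc5, the transactivator of class I genes, was the least abundant member. The gene covers chr8:94434356-94527272 on the plus strand and was measured by 71 to 206 fragments per library. It stood at 0.689, 0.358 and 0.443 FPKM in Control and 0.768, 0.562 and 0.748 in GOF. Only Control replicate 0 overlapped the GOF values. The means were 0.497 ± 0.171 and 0.693 ± 0.113 (SD, n = 3 per group), with a log2 fold change of 0.69 (SE 0.32, edgeR adjusted p = 0.170). Without Control replicate 0, its highest Control value, it was 1.04 (edgeR adjusted p = 0.0330), past both thresholds. In the other 13 alternatives that tested Nlrc5 it was not called, with adjusted p up to 0.409. The long non-coding gene 9330175E14Rik overlaps the 5′ end of Nlrc5 and was called higher in GOF at 0.083 ± 0.053 against 0.206 ± 0.011 FPKM (log2 fold change 1.71, edgeR adjusted p = 0.0333). That call rested on 4 to 9 fragments in Control and 16 to 32 in GOF, and its adjusted p reached 0.128 over the alternatives.

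**Figure D3:**
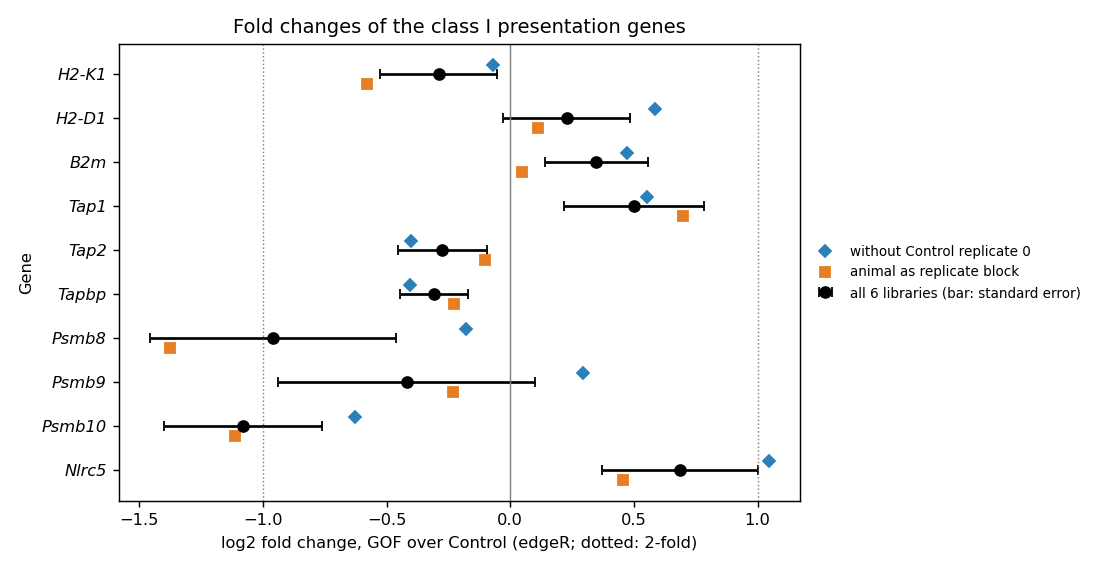
Log2 fold change, GOF over Control, of the 10 members from edgeR, with bars of 1 SE, for all 6 libraries, without Control replicate 0 and with animals as blocks. Without Control replicate 0 Psmb10 moved from -1.08 to -0.63, Psmb8 from -0.96 to -0.18 and Nlrc5 from 0.69 to 1.04.

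Some other regulators of class I transcription were lower in GOF. Of 20 tested, 3 were called lower and 0 higher by edgeR, against 5.64% lower and 6.69% higher over all genes. Stat2, which carries the signal of type I interferon receptors to the nucleus, fell from 10.0 ± 3.14 to 3.27 ± 0.783 FPKM (SD, n = 3 per group; log2 fold change -1.65, edgeR adjusted p = 0.0058). Irf9, a DNA-binding factor of the same pathway, fell from 23.2 ± 7.78 to 8.72 ± 0.780 (log2 fold change -1.44, edgeR adjusted p = 0.0064). Without Control replicate 0 the count was still 3 lower, with Irf9 at -1.13. Irf1, which binds the interferon response core, averaged 9.58 ± 0.912 in Control and 7.36 ± 0.815 in GOF (log2 fold change -0.41, edgeR adjusted p = 0.0544). Its relative Irf2 was at 0.31 (edgeR adjusted p = 0.568). The RFX subunits, which bind the X box beside the CRE core, were not called, with log2 fold changes of -0.29 for Rfx5, -0.25 for Rfxap and -0.20 for Rfxank.

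Interferon-induced genes, which usually rise together with class I genes, were also lower in part in GOF. Of 13 interferon-γ-induced genes tested, 6 were lower and 0 higher, with a median log2 fold change of -1.46. Examples were the guanylate-binding proteins Gbp3 (-2.58) and Gbp9 (-2.09) and the immunity-related GTPases Irgm2 (-1.46) and Iigp1 (-3.40). Of 27 type I interferon-induced genes, 12 were lower and 0 higher, with a median of -1.50. They included the RNA sensor relative Dhx58 (-2.50), and Ifi44 (-3.18), Ifi203 (-2.32) and Ifit3b (-3.09). Control replicate 0 was the highest Control for 13 of the 13 and 24 of the 27. Without it the counts were 4 and 9, and the medians -0.79 and -0.84. Without Control replicate 2 the counts were 4 and 9 as well, with medians of -1.56 and -1.62. The interferon-γ count also moved with single GOF libraries, to 2, 3 and 3 without replicates 0, 1 and 2. The type I count moved to 3, 4 and 5, and it was 19 without Control replicate 1 and 20 with animals as blocks. The interferon genes Ifng, Ifnb1 and Ifna4 were at 0 in every library, and of 11 ligand, receptor and Jak-Stat genes tested only Usp18, a brake on the type I receptor, was called (log2 fold change -2.37, edgeR adjusted p = 0.0467). Usp18 stood at 24.8 FPKM in Control replicate 0 against 2.99 and 6.88 in the other Controls, and without that library its log2 fold change was -1.13 (edgeR adjusted p = 0.0497). Of these 11 genes 0 were called without Control replicate 2 or any 1 GOF library. Jak2, also among the 11, averaged 14.5 ± 0.508 FPKM in Control and 27.6 ± 1.91 in GOF, without overlap. Its log2 fold change of 0.93 had an edgeR adjusted p of 0.0010 but was under 2-fold.

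**Figure D4:**
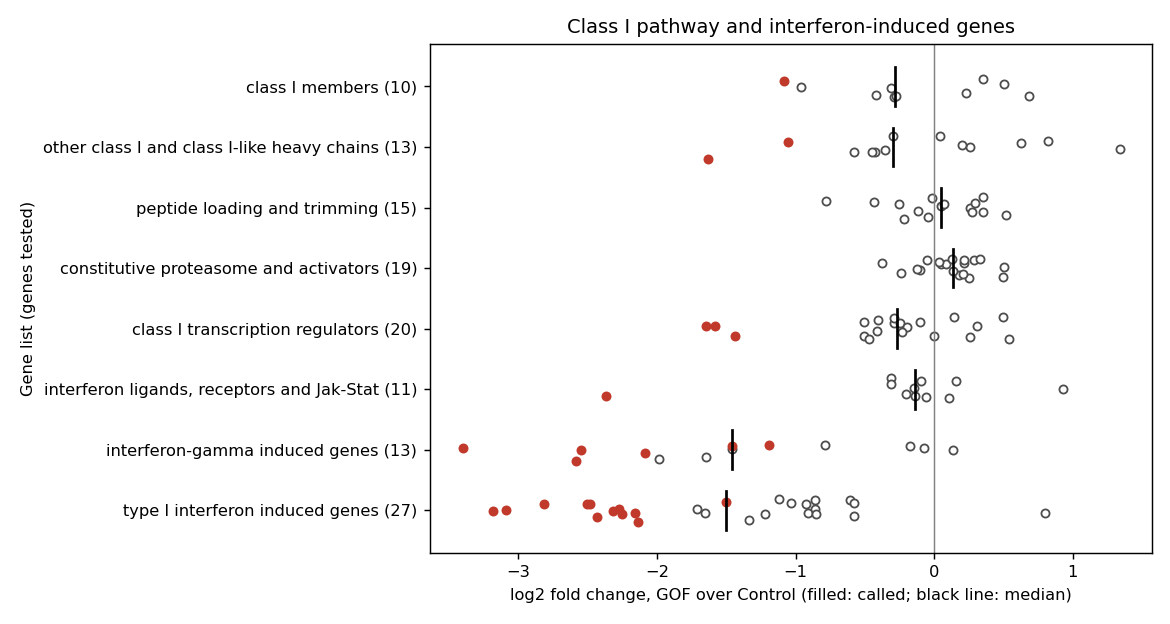
Log2 fold change, GOF over Control, of every tested gene in the member list and the other lists of the pathway, with called genes filled and medians as bars. The members' median of -0.28 lay near 0, whereas the interferon-γ and type I lists had medians of -1.46 and -1.50.

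The remaining steps of peptide handling did not differ by the call rule. Of 15 genes of peptide loading and trimming, 0 were called in either direction by edgeR, with 2 higher and 1 lower at an unadjusted p under 0.05, and DESeq2 likewise called 0. Erap1, which trims peptides in the endoplasmic reticulum, averaged 10.5 ± 0.945 FPKM in Control and 6.12 ± 0.725 in GOF. Its log2 fold change of -0.78 had an edgeR adjusted p of 0.0102 but was under 2-fold. Calr, the chaperone calreticulin, averaged 470 and 608 (log2 fold change 0.35, edgeR adjusted p = 0.157). Of 19 constitutive proteasome and activator genes edgeR called 0 and DESeq2 0, with 2 higher and 1 lower at an unadjusted p under 0.05. The activator subunits Psme1 and Psme2, which interferon-γ induces in many cells, had log2 fold changes of -0.38 (edgeR adjusted p = 0.0584) and -0.24 (edgeR adjusted p = 0.514). Control replicate 0 was the highest Control for 18 of these 19 genes, so its high values were not limited to interferon-induced genes.

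Among 13 other class I and class I-like heavy chains tested of 23 in the table, 2 were lower in GOF and 0 higher, with a median log2 fold change of -0.30. With Control replicate 0 left out, 1 was lower (Cd1d1) and 1 higher (H2-T10, edgeR adjusted p = 0.0143), and without GOF replicate 2 they were 1 lower (Cd1d1) and 2 higher (H2-T22 and H2-Q7). Cd1d1, which presents lipids to natural killer T cells, was at 6.87 FPKM in Control and 2.10 in GOF (log2 fold change -1.63, edgeR adjusted p = 0.0039). H2-M3, which presents formylated peptides and holds the same spaced promoter boxes as H2-K1, H2-D1 and B2m, was at 2.79 and 1.38 (log2 fold change -1.05, edgeR adjusted p = 0.0172). H2-M3 was at -0.97 (edgeR adjusted p = 0.0352) without Control replicate 0, short of 2-fold, and it was not called without Control replicate 1, GOF replicate 0 or GOF replicate 2 either. Of 4 class II genes tested, H2-Ab1 alone was called, higher at 0.408 and 1.43 FPKM (log2 fold change 1.72, edgeR adjusted p = 0.0254), and 0 class II genes were called when any 1 Control library, GOF replicate 1 or GOF replicate 2 was left out. Of 8 ligands of natural killer receptors, which read class I levels or stress on a target cell, Pvr (1.18, edgeR adjusted p = 0.0028) and H60b (2.30, edgeR adjusted p = 0.0179) were higher and Clec2d (-1.11, edgeR adjusted p = 0.0035) lower. The counts were 4 higher and 0 lower without GOF replicate 2, and 1 higher without Control replicate 1 or GOF replicate 0.

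H2-T22 and H2-T23, which were not called between the groups in the fit of all 6 libraries, differed between animals. In 9852 minus 9845, the log2 difference of FPKM for H2-T22 was -1.50 in Control and -2.65 in GOF, and for H2-T23, the mouse Qa-1 gene, -1.64 and -1.38. H2-T22 stood at 9.32, 20.3 and 26.3 FPKM in Control and 44.6, 51.8 and 7.13 in GOF, with both cultures of animal 9852 below all others. H2-T23 stood at 7.99, 19.8 and 24.8 in Control and 17.8, 18.8 and 6.83 in GOF, and again both 9852 cultures were the lowest. Over the 23 tested class I and class I-like genes, members included, these 2 differed over 2-fold in the same direction in both groups. Of 10917 genes with at least 1 FPKM in every library, 0.843% did so. The animal differences had the same sign in both groups for 16 of the 23, against 69.5% of all those genes. H2-T22 and H2-T10 are near-identical paralogs, and H2-T10 went the other way. It stood at 25.8, 6.59 and 8.68 FPKM in Control and 13.3, 16.2 and 18.0 in GOF. Its log2 difference, 9852 minus 9845, was 1.57 in Control and 0.43 in GOF. How fragments were split between H2-T10 and H2-T22 was not tested. For H2-T22 and H2-T23, differences in allele sequence and in RNA level cannot be told apart here.

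**Figure D5:**
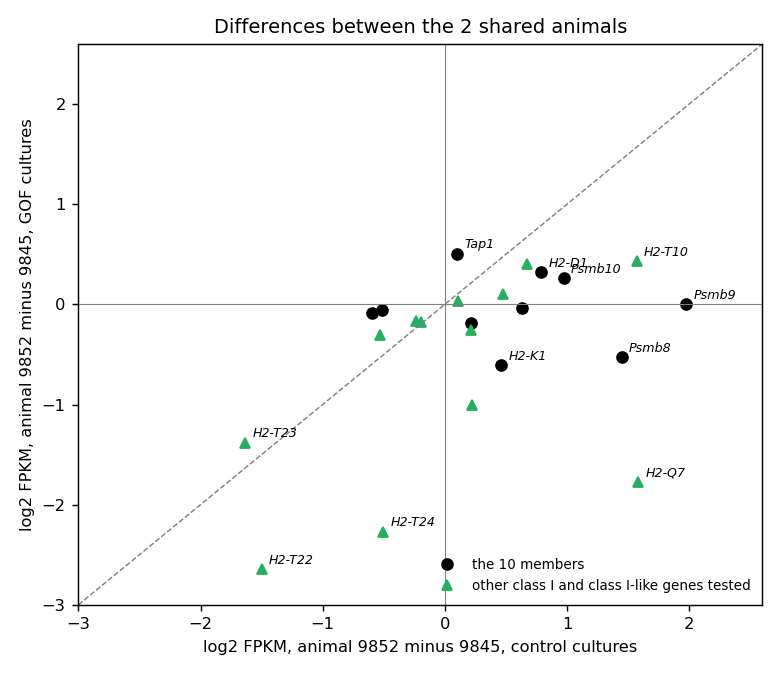
Log2 difference of FPKM, animal 9852 minus animal 9845, in Control (horizontal axis) and GOF (vertical axis) for each class I and class I-like gene tested. H2-T22 (-1.50, -2.65) and H2-T23 (-1.64, -1.38) lay over 2-fold below 0 on both axes.

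Members shared little of their variation over the 6 libraries. The 45 pairwise Pearson correlations of their log2(FPKM + 1) levels ran from -0.92 to 0.93 with a median of 0.11, and 25 were above 0. The points share library depth and the high Control replicate 0, and no test was made. The members' mean z-score was 0.68 in Control replicate 0, -0.52 and -0.04 in the other Controls, and 0.03, -0.07 and -0.08 in GOF. The protein-coding genes most like this profile, of 11136, were Bcap29 (r = 0.984), Psmg3 (0.978), Ppie (0.978), Pim3 (0.973) and Suv39h2 (0.970) over 6 libraries. All 5 were highest in Control replicate 0, and none was called between the groups. Both traits were largely set by picking the genes, out of 11136 and over 6 libraries, for likeness to this profile.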

How the data were processed

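The deposited table was used as the authors made it: reads (TruSeq stranded libraries, paired-end) were aligned with TopHat to mm10, and Cuffdiff gave estimated counts of fragments and FPKM per gene and library. Versions and use of strand in counting are not given in the sources used here. Gene identifiers were matched to GENCODE M21 (97.9%), 32 genes with failed estimates were left out, and 3 per-library value columns were not used. The deposited table of lncRNA genes, which holds none of the 10 members, was not used here. The estimated fragments, of which 4.95% were not whole, were rounded and tested with edgeR 4.0.16 (TMM, filterByExpr, quasi-likelihood, R 4.3.3) over 15462 genes, with Benjamini-Hochberg adjustment and calls at adjusted p under 0.05 and fold change over 2. Values of single genes and ratios were compared by exact permutation over libraries. Alternatives used DESeq2 1.42.0, limma 3.58.1, other scalings, filters and pseudocounts, replicate blocks and each library left out. In a simulation of this comparison on 15462 genes with 200 changed by 2 log2 units, 178 were called, all 178 in the right direction, with 11 false calls. Changes as small as those of the members and animals shared by the groups were not simulated, so detection at that size was not tested. Members and lists were chosen with earlier results of these data known. Named genes were the members, their fixed counterparts and regulators, Ctnnb1 and Axin2, up to 4 called genes per list by smallest adjusted p, and the 5 genes most like the members. Jak2, Stat2, Irf9, H2-T10, H2-T22, H2-T23, H2-Q7, Ifng, Ifnb1, Ifna4, markers and overlapping genes were added beside these. Some genes of the lists are not reported here.

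Same-numbered Control and GOF cultures came from different animals and did not deviate together (r = -0.41, 0.05 and -0.44 over 15462 genes), while cultures of the same animal did (0.41 and 0.46). The pairing therefore follows the animal, which covers 2 of the 3 cultures in each group. Replicates differed by more than sampling noise (chi-square per degree of freedom 24.3 to 182). The depth of 35980818 to 42834460 fragments per library leaves counting error small beside the spread between cultures, except for Psmb9 and Nlrc5. Animals and cultures are the replicates, and p-values measure the spread between these 6 cultures.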

Additional observations from a re-analysis of the deposited data

How the results depend on the processing

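Psmb10 was lower in GOF under all 15 alternatives, but 0 members were called lower with at least 1 FPKM in 3 libraries (log2 fold change -1.07, edgeR adjusted p = 0.05001), limma on log2(FPKM + 1) (-0.87, adjusted p = 0.0654), limma on log2(FPKM + 0.1) (-0.95, adjusted p = 0.0545) and a replicate block by label number (-0.997, edgeR adjusted p = 0.0989). Leaving out each library in turn gave 0 to 1 members lower, 0 to 1 higher and a median log2 fold change of -0.33 to 0.11. Without Control replicate 0, GOF replicate 0, GOF replicate 1 or GOF replicate 2 Psmb10 was not called, at -0.63, -1.02, -0.997 and -1.23. The replicate block by animal kept 1 member lower. It rests on the animals with a culture in each group and leaves 1 residual degree of freedom. Psmb9 turned to 0.037 with limma on log2(FPKM + 0.1) and ran from -0.77 to 0.30 with libraries left out. The Psmb9 to Psmb6 log2 difference was -0.16 on fragments and ran from -0.21 to 0.34. Over the other lists 37 genes were called, 20 with limma on log2(FPKM + 1) and 19 to 40 with libraries left out. For Psmb9, at 25 to 86 fragments, the depth limits what could be detected. The cause of these changes was not tested.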
